A study of Arabidopsis thaliana with 47 samples.

Results

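Transcript levels of 10 SAUR genes (small auxin up RNA) were followed in Arabidopsis thaliana seedlings that were moved from dim to brighter light. The genes were SAUR1, SAUR10, SAUR14, SAUR15, SAUR16, SAUR23, SAUR50, SAUR51, SAUR66 and SAUR68. They were picked as a set of loci after their levels in these groups had been seen, and each was read from the 1 probe set that the authors' table assigns to that locus alone. A further 46 SAUR genes had such a probe set, and 20399 genes in all. Because the same levels served to pick the 10 genes, their values and differences are a description and carry no p-value.

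SAUR genes encode small plant proteins, and many of them are among the first transcripts to rise after auxin. In the acid growth model, SAUR proteins bind and inhibit PP2C.D phosphatases, which keeps plasma membrane H+-ATPases phosphorylated and active, so that the wall is acidified and expansins can loosen it. In seedlings this pathway is used by auxin and by the PIF transcription factors, which are active in darkness, dim light and shade and drive elongation of the hypocotyl. Some SAUR genes are known to respond to light in opposite directions in cotyledons and hypocotyls.

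The material was whole Col-0 wild-type seedlings, 7 days old at the start of the light shift, grown on medium with sucrose, and 1 array was hybridized per pool of seedlings. Seedlings spent 6 days in mixed blue and red light at a dim 0.5 µmol m-2 s-1, and the fluence rate was then raised to 60 with the same colours. Lincomycin, an antibiotic that stops translation in plastids and so blocks chloroplast development, was either absent from the medium (-Lin) or present in it at 0.5 mM (+Lin). Arrays were made before the shift (0 h, 8 arrays for each medium) and 0.5, 1, 4 and 24 h after it (4 arrays each, except 3 for +Lin at 1 h), giving 47 ATH1 arrays. The labels call the replicates biological, each grown on its own. A whole seedling mixes cotyledons, hypocotyl and root, and in such RNA fewer cells of a type and less RNA per cell cannot be told apart.

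Some properties of the arrays touch every result. A Dap control signal split them into 3 sets: -Lin arrays at 0.5 h, 1 h and 0 h numbers 1 to 4 (mean log2 level 4.12 ± 0.56, SD, n = 12), +Lin arrays at the same times and numbers (9.17 ± 0.14, n = 11), and arrays of both media at 4 h, 24 h and 0 h numbers 5 to 8 (8.47 ± 0.23, n = 23). No label names these sets as batches. Each time was therefore compared with the 0 h arrays of its own medium and set, and lincomycin effects are given at 0, 4 and 24 h, where both media lie in 1 set. Array 4 at 24 h -Lin stood apart, with a median rank correlation with the other arrays of 0.619 against 0.914 to 0.949 for the other 46, a first quartile of 7.36 on the log2 scale against 5.38 to 6.22, and a Dap level of 4.52, and values that rest on it are given with and without it. Levels are log2(signal + 1), differences are log2 differences ± SE from 1 limma fit of all arrays, and a probe set was called at a Benjamini-Hochberg adjusted p under 0.05. The first quartile of an array served as its floor. Where the dimmer group lay at or below it, the difference is given as a bound or without a size.

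Seedling markers were present throughout: the 4 shoot epidermis markers lay above the floor in all 12 groups, and 3 to 5 of the 5 root markers did. The 2 measured mesophyll markers did too, with a mean level of 12.24 to 12.81 in the -Lin groups and 9.66 to 10.91 in the +Lin groups.

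SAUR23 (AT5G18060) belongs to the SAUR19 group, whose members enlarge cells when overexpressed. Before the shift its -Lin levels were 8.84, 8.94, 8.98 and 9.09, and after 0.5 h they were 4.68, 5.77, 5.93 and 6.30. No array of the later group reached the 0 h arrays. The difference of means was -3.29 ± 0.32. At 0.5 h 2 of the 4 arrays were at or below their own first quartile, and the group mean of 5.67 was close to the mean floor of 5.62, so that no fold is given. At 1 h -Lin SAUR23 stood at 6.55, 6.65, 6.89 and 7.44, a difference of -2.08 ± 0.32. In +Lin seedlings it lay at 9.0, 9.25, 9.30 and 9.51 at 0 h and at 6.90, 7.09, 7.34 and 7.40 after 0.5 h, a difference of -2.08 ± 0.32. The lowest +Lin arrays came at 1 h, with 4.39, 5.90 and 6.83. Their mean of 5.71 was below the mean floor of 5.89. Only 1 of the 3 arrays was at or below its own first quartile, so that no fold or bound is given.

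At 4 h SAUR23 was lower by similar amounts in both media, at -2.56 ± 0.32 without and -2.14 ± 0.32 with lincomycin. At 24 h the +Lin arrays stayed in a narrow low range of 6.27 to 6.76 (-1.82 ± 0.32 against 8.31 to 8.43 at 0 h). The -Lin arrays at 24 h were spread from 6.97 to 8.63, with 3 of the 4 above the 6.68 to 7.09 of 4 h, and below all 0 h arrays (9.22 to 9.69). Their difference from 0 h was -1.42 ± 0.32, and -1.65 without the array that stood apart. The SAUR23 probe set carries the suffix that Affymetrix gives to probes that may match other sequences, and near-identical SAUR genes are known in its group, so the signal may be shared with them.

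SAUR66 (AT1G29500) and SAUR68 (AT1G29510) lie next to each other on chromosome 1, with 0 genes between them in the TAIR10.1 annotation, and belong to the SAUR63 group, which promotes hypocotyl elongation. SAUR66 had -Lin levels of 8.26, 8.52, 8.58 and 8.59 before the shift and of 6.62, 7.05, 7.19 and 7.37 after 0.5 h. The groups did not overlap, and the difference was -1.43 ± 0.27. With lincomycin, SAUR66 went from 8.49, 8.52, 9.01 and 9.08 to 6.57, 7.35, 7.51 and 7.70, a difference of -1.49 ± 0.27. The +Lin groups did not overlap either, and the difference between the responses was -0.06 ± 0.38.

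SAUR68 had -Lin levels of 8.05, 8.35, 8.49 and 8.51 at 0 h and of 6.61, 6.61, 7.51 and 7.52 after 0.5 h, a difference of -1.29 ± 0.28. Its +Lin difference at 0.5 h was -1.23 ± 0.28. At 1 h the +Lin arrays of SAUR68 were 5.47, 6.43 and 7.22, a difference of -2.19 ± 0.30, while the -Lin arrays lay at 7.16 to 7.87, a difference of -0.84 ± 0.28. Of the 3 +Lin arrays 1 was at or below its own first quartile. Their SD was 0.88, whereas the SE comes from the fit of all arrays. At 4 h the neighbours again stood close to each other, SAUR66 at -1.25 ± 0.27 and -1.21 ± 0.27, and SAUR68 at -1.04 ± 0.28 and -1.09 ± 0.28, without and with lincomycin.

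The 24 h values of this pair depended on the array that stood apart. SAUR66 read 7.78, 7.99 and 8.0 on the other -Lin arrays and 9.73 on that array. With all 4 arrays the difference from 0 h was -0.21 ± 0.27, and without it -0.66. SAUR68 read 8.08, 8.08, 8.55 and, on the array apart, 9.69, which gave -0.04 ± 0.28 with and -0.41 without it. In +Lin seedlings, where no array stood apart, the 24 h difference was -0.97 ± 0.27 for SAUR66 and -0.77 ± 0.28 for SAUR68, and neither group overlapped its 0 h arrays.

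SAUR1 (AT4G34770) went from clearly measured levels at 0 h to group means below the floor at 0.5 and 1 h in both media. Its -Lin levels were 7.54, 7.58, 7.98 and 8.46 at 0 h and 3.29, 3.6, 3.78 and 4.01 after 0.5 h. All 4 later arrays lay below their mean floor of 5.62, and SAUR1 was therefore lower by at least 2.27. At 1 h -Lin it was lower by at least 2.24 and at 24 h -Lin by at least 2.41. The 4 h -Lin arrays were brighter, at 5.27, 5.85, 6.10 and 6.28, with a difference of -2.54 ± 0.51 from 0 h. In +Lin seedlings SAUR1 was lower by at least 2.42 at 0.5 h and 2.56 at 1 h. Its +Lin differences at 4 and 24 h were -2.14 ± 0.51 and -2.10 ± 0.51. The group means of 5.62 and 5.66 were close to the mean floors of 5.57 and 5.59, so that no fold is given. At 24 h 3 of the 4 +Lin arrays read 6.20 to 6.40 and the fourth 3.75, whereas all 4 -Lin arrays lay between 3.3 and 5.40, at or below their floor. SAUR1 was at or below the floor on 21 of 47 arrays.

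**Figure D1:**
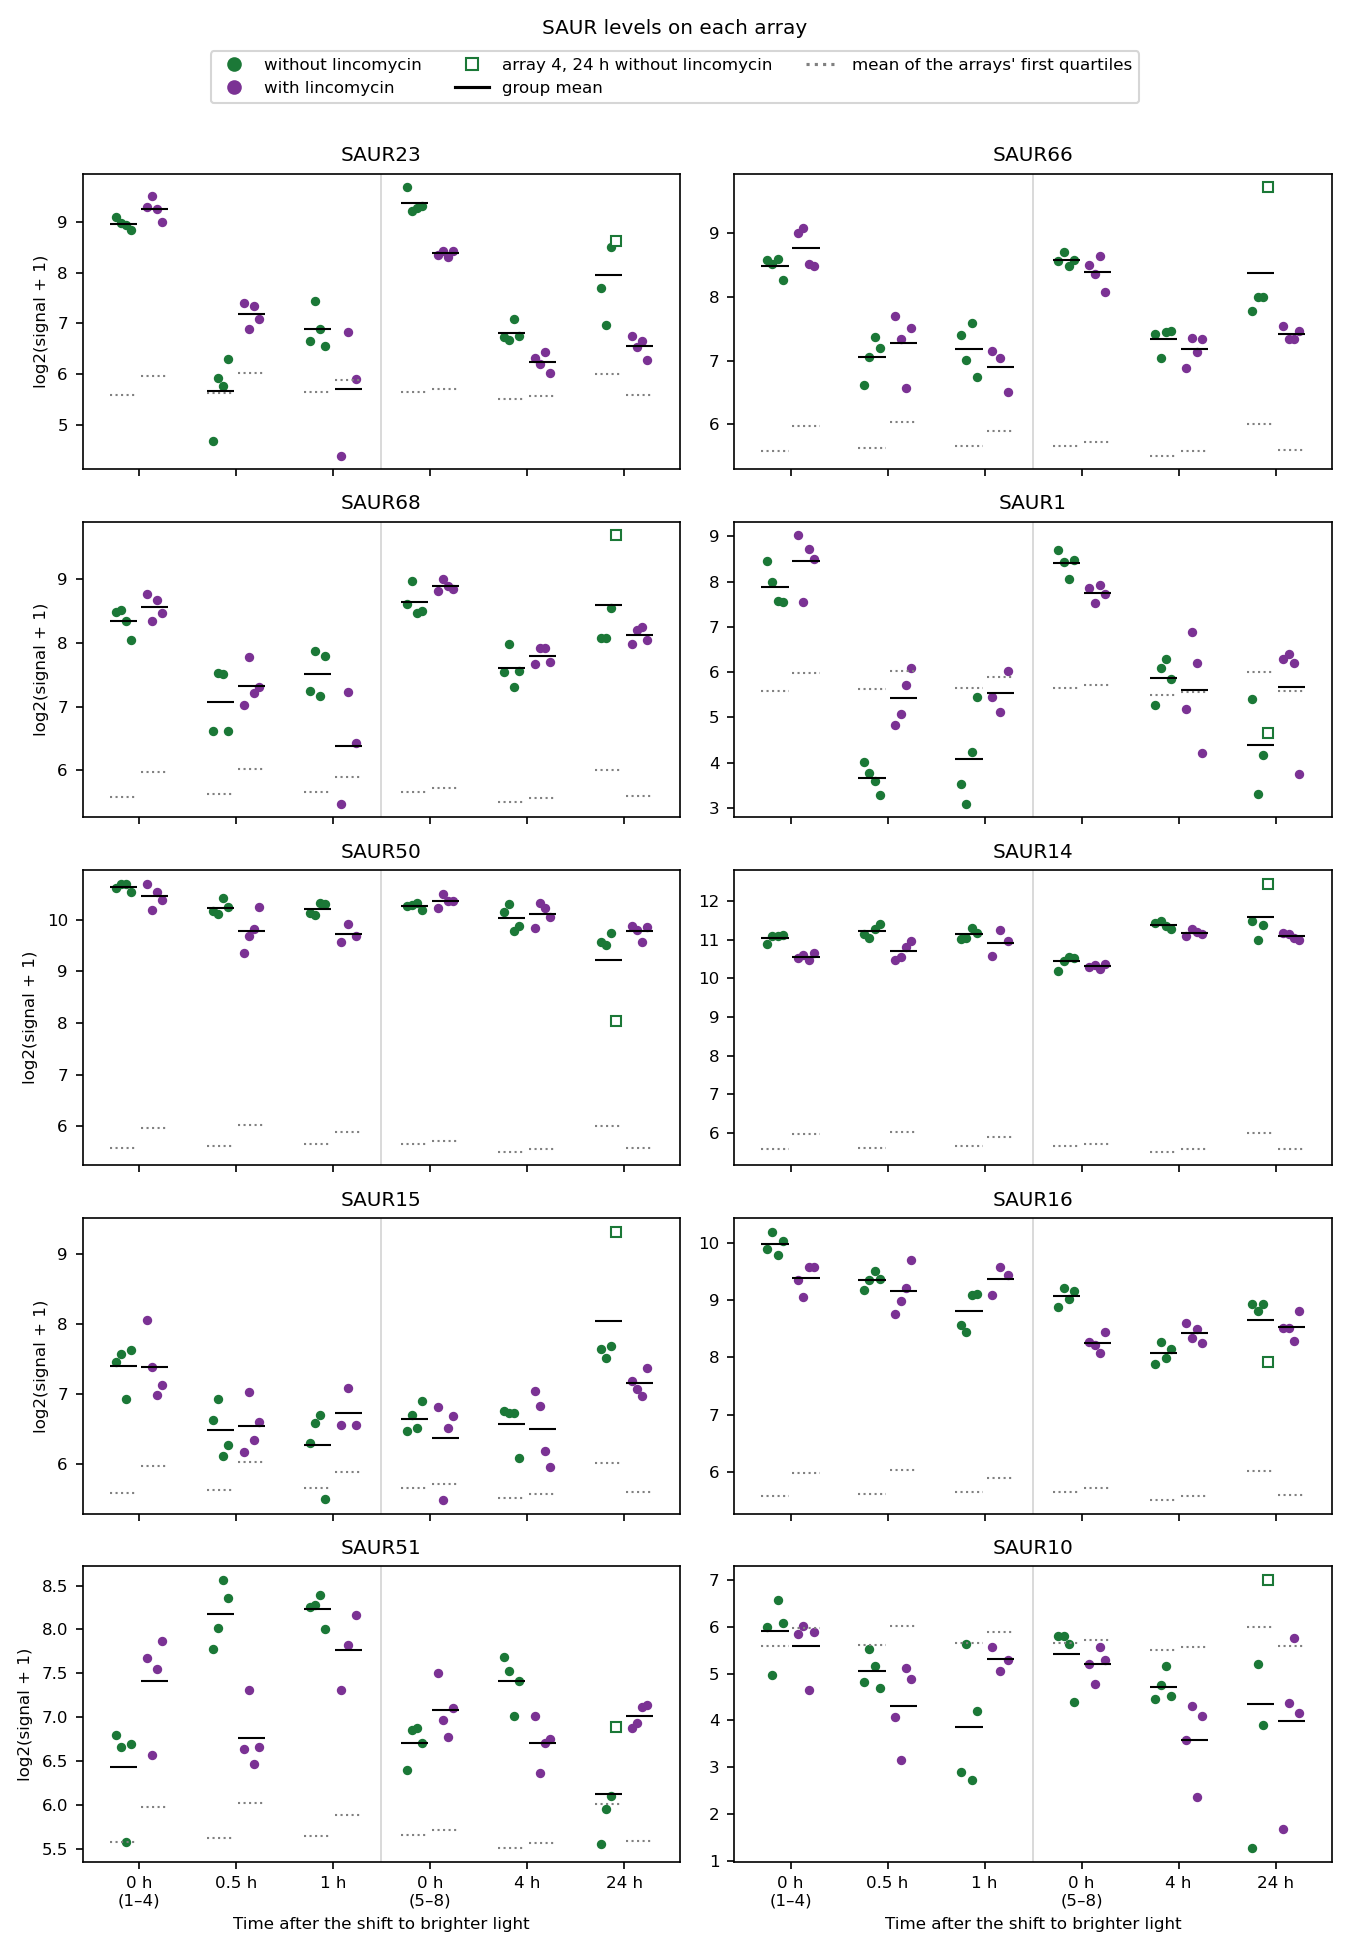
Level of each of the 10 SAUR genes on every array, as log2(signal + 1) on the vertical axis, against time after the shift, with 0 h arrays numbered 1 to 4 shown left of the grey line and those numbered 5 to 8 right of it. Points are arrays, black bars group means and dotted bars the mean first quartile of the arrays. SAUR23, SAUR66, SAUR68 and SAUR1 lie low at 0.5, 1 and 4 h in both media, SAUR14 lies high at 4 and 24 h, and SAUR51 lies high at 0.5 and 1 h without lincomycin. The open square, array 4 at 24 h without lincomycin, lies far from the other 3 arrays in several genes, as for SAUR66 at 9.73 against 7.78 to 8.0.

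SAUR50 (AT4G34760), the neighbour of SAUR1 with 0 protein-coding and 3 other annotated genes between them, moved far less. SAUR50, SAUR14 and SAUR16 are among the SAUR genes known to respond to light in opposite directions in cotyledons and hypocotyls of seedlings leaving darkness. SAUR50 had -Lin levels of 10.54 to 10.69 at 0 h and 10.10 to 10.42 after 0.5 h. Every difference of SAUR50 was below 0, from -0.24 ± 0.21 at 4 h to -1.05 ± 0.21 at 24 h, both -Lin. The last value became -0.66 without the array apart, which read 8.03 against 9.51 to 9.75 on the other 3. With lincomycin SAUR50 differed from 0 h by -0.68 ± 0.21, -0.73 ± 0.23, -0.25 ± 0.21 and -0.58 ± 0.21 at 0.5, 1, 4 and 24 h.

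SAUR14, SAUR15 and SAUR16 (AT4G38840, AT4G38850 and AT4G38860) follow each other on chromosome 4, with 1 annotated gene that does not code for protein between SAUR15 and SAUR16. They did not share 1 pattern. SAUR14 was above its 0 h mean in all 8 comparisons. At 0.5 and 1 h its differences were 0.09 to 0.36, and its arrays overlapped those of 0 h. At 4 h -Lin it read 11.27, 11.37, 11.44 and 11.49 against 10.20, 10.46, 10.54 and 10.56, a difference of 0.95 ± 0.17, and at 4 h +Lin the difference was 0.86 ± 0.17. At 24 h SAUR14 stood 1.14 ± 0.17 higher without lincomycin, or 0.85 without the array apart, and 0.78 ± 0.17 higher with it. The groups did not overlap in any of these 4 comparisons. The 0 h means of SAUR14 differed between numbers 1 to 4 and 5 to 8, at 11.05 and 10.44 -Lin and at 10.57 and 10.32 +Lin.

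SAUR15 is also called SAUR-AC1 and used as a marker of early auxin response. It was lower at 0.5 and 1 h and higher at 24 h, each time against the 0 h arrays of its own set. Its -Lin levels were 6.92, 7.46, 7.57 and 7.63 at 0 h and 5.49, 6.30, 6.58 and 6.70 at 1 h, a difference of -1.13 ± 0.32. At 4 h its difference was -0.07 ± 0.32. At 24 h SAUR15 read 7.52, 7.64 and 7.68 on 3 arrays and 9.32 on the array apart, against 6.46 to 6.90 at 0 h. The difference was 1.40 ± 0.32, and 0.97 without that array, and the groups did not overlap. The +Lin differences had the same signs at 0.5, 1 and 24 h, at -0.85 ± 0.32, -0.66 ± 0.35 and 0.78 ± 0.32. The 0 h means themselves differed between numbers 1 to 4 and 5 to 8, at 7.39 and 6.64 -Lin and at 7.39 and 6.37 +Lin. Against numbers 1 to 4, the +Lin mean at 24 h was lower, at 7.15. The -Lin mean at 24 h was higher, at 8.04, or 7.61 without the array apart. A course from early to late times is therefore not read across the sets.

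SAUR16, like SAUR50 linked to cotyledon opening, was lower without lincomycin and hardly differed with it. Its -Lin levels were 9.78, 9.90, 10.03 and 10.20 at 0 h and 8.44, 8.56, 9.10 and 9.11 at 1 h, a difference of -1.17 ± 0.19. At 4 h it read 7.89, 8.0, 8.15 and 8.27 against 8.88 to 9.21 at 0 h, a difference of -0.99 ± 0.19. The +Lin differences were -0.02 ± 0.20 at 1 h and 0.17 ± 0.19 at 4 h, where the arrays overlapped those of 0 h. The difference between the responses was 1.15 ± 0.28 at 1 h and 1.16 ± 0.27 at 4 h. The 0 h means of SAUR16 differed between numbers 1 to 4 and 5 to 8, at 9.98 and 9.07 -Lin and at 9.39 and 8.25 +Lin.

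SAUR51 (AT1G75580) had the largest difference between the responses of both media at 0.5 h among the 10 genes. Without lincomycin it read 5.58, 6.66, 6.69 and 6.79 at 0 h, 7.78, 8.02, 8.36 and 8.57 after 0.5 h, and 8.0, 8.25, 8.28 and 8.39 after 1 h. The differences were 1.75 ± 0.27 and 1.80 ± 0.27, or 3.37-fold and 3.49-fold, with no overlap. At 4 h SAUR51 was still higher by 0.70 ± 0.27. With lincomycin it read 6.57, 7.55, 7.68 and 7.87 at 0 h and 6.46, 6.64, 6.66 and 7.31 after 0.5 h, a difference of -0.65 ± 0.27, and the groups overlapped. At 1 and 4 h the +Lin differences were 0.35 ± 0.29 and -0.38 ± 0.27. The response with lincomycin minus that without was -2.40 ± 0.38 at 0.5 h, -1.45 ± 0.39 at 1 h and -1.08 ± 0.38 at 4 h. At 24 h SAUR51 had returned to or below its 0 h level without lincomycin, at -0.58 ± 0.27, or -0.84 without the array apart.

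SAUR10 (AT2G18010), known as a growth-promoting SAUR that responds to hormones and light quality, was too dim for its differences to be read. It lay at or below the floor on 37 of 47 arrays and in 11 of 12 groups. Only the -Lin 0 h arrays numbered 1 to 4 had a mean above the floor, and the arrays at 0.5 and 1 h overlapped them. Its 8 differences lay between -0.29 ± 0.81 and -2.04 ± 0.75, and neither size nor order is read from them.

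**Figure D2:**
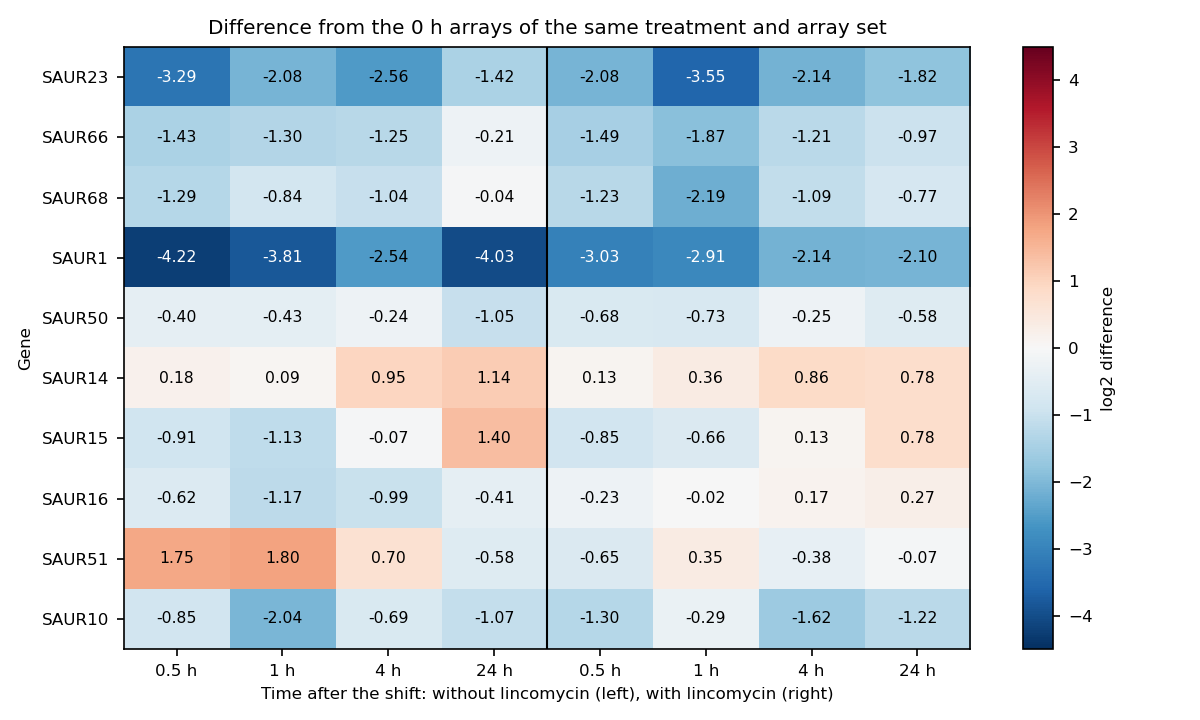
Log2 difference of each SAUR gene (rows) from the 0 h arrays of the same medium and set, for 4 times without lincomycin (left of the line) and 4 with it (right). Blue is lower and red higher, and the numbers are the differences. Values of groups below the floor, as for most of SAUR1 and SAUR10, are drawn as fitted and have no readable size. SAUR1 and SAUR23 are blue in all 8 columns, SAUR14 is red in all 8, and SAUR51 is red at 0.5, 1 and 4 h in the left part, up to 1.80, and at most 0.35 in the right part.

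Counted over the 10 genes, the calls were as follows. At 0.5 h -Lin 4 were called lower, where 0.466% of all probe sets were, and 1 higher, where 0.387% were, or 5 lower and 1 higher without the array apart (0.888% and 0.866% of all). At 1 h -Lin 5 were called lower (2.68% of all) and 1 higher (3% of all), or 8 lower and 1 higher without the array apart (4.28% and 4.99% of all). At 4 h -Lin it was 5 lower (16.2%) and 2 higher (17.3%), and at 24 h 3 lower (21.5%) and 2 higher (20.7%), or 6 lower and 2 higher without the array apart (24.5% and 19.2% of all). With lincomycin 4 were called lower at 0.5 h (0.18% of all), 1 h (0.545%) and 4 h (6.36%) and 5 at 24 h (12.4%), and 0, 0, 1 and 1 higher (0.167%, 0.958%, 7.16% and 9.89%). Without the array apart it was 5, 5, 4 and 5 lower (0.409%, 1.27%, 11.5% and 17.4% of all) and 0, 0, 1 and 2 higher (0.497%, 1.7%, 10.3% and 13.1%). Counted by arrays instead, the groups did not overlap for 7 of the 10 genes at 0.5 h -Lin (7.41% of all probe sets), 8 at 1 h (16.7%), 7 at 4 h (39.5%) and 5 at 24 h (30.7%), and for 4, 5, 6 and 7 of them +Lin (3.53%, 8.45%, 25.1% and 31.1%). Since the genes were picked on these levels, no more is read from the counts. The median difference of the 10 genes was -0.88, -1.15, -0.84 and -0.50 at 0.5, 1, 4 and 24 h -Lin, and -1.04, -0.69, -0.73 and -0.68 +Lin. Over all probe sets the median lay between -0.08 and 0.16. The 0.16 belongs to 24 h -Lin, where it became 0.01 after quantile normalization and the median of the 10 genes became -0.84.

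Before the shift, lincomycin went with a lower level of some of these genes. In the arrays numbered 5 to 8, SAUR16 read 8.08, 8.22, 8.27 and 8.44 with and 8.88, 9.01, 9.16 and 9.21 without lincomycin, a difference of -0.81 ± 0.19. SAUR23 read 8.31 to 8.43 with and 9.22 to 9.69 without it, a difference of -0.99 ± 0.32. These 2 genes were called lower and 0 of the 10 higher, where 8.64% of all probe sets were lower and 13.5% higher, and 3 of the 10 had groups that did not overlap (29.7% of all). In the arrays numbered 1 to 4, where medium and set cannot be told apart, SAUR16 was again lower with lincomycin (-0.59 between means), whereas SAUR23 was 0.30 higher. SAUR1 changed sign likewise, with -0.66 in numbers 5 to 8 and 0.56 in numbers 1 to 4.

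At 4 h after the shift 0 of the 10 genes were called for lincomycin in the limma fit, where 13.9% of all probe sets were (8.06% higher and 5.81% lower), and 3 had groups that did not overlap (27.1% of all). Without the array apart SAUR51 was called lower and 0 higher (8.97% and 13.6% of all). The differences ran from -1.13 ± 0.75 for SAUR10, below its floor in both media, to 0.35 ± 0.19 for SAUR16. SAUR51 read 6.37 to 7.01 with and 7.01 to 7.69 without lincomycin, a difference of -0.70 ± 0.27.

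At 24 h the count rested on the array apart: 4 of the 10 genes were called lower with lincomycin (13.3% of all probe sets) and 3 higher (19.9%), but without that array 1 lower and 1 higher (11% and 21.2% of all). With all arrays 3 of the 10 had groups that did not overlap (24.2% of all). SAUR23 was lower in both cases, at -1.40 ± 0.32 with all arrays and -1.17 without that array, and all 4 +Lin arrays (6.27 to 6.76) lay below all -Lin arrays. SAUR51 was higher in both cases, by 0.89 ± 0.27 and 1.14, with +Lin arrays at 6.88, 6.94, 7.11 and 7.14 and -Lin arrays at 5.56, 5.96, 6.10 and, on the array apart, 6.88. SAUR66 went from -0.95 ± 0.27 to -0.50, SAUR15 from -0.89 ± 0.32 to -0.47, SAUR14 from -0.49 ± 0.17 to -0.19, and SAUR50 from 0.56 ± 0.21 to 0.16 when the array was left out. SAUR1 is among the 3 genes called higher, but no difference is given for it. Its -Lin mean was below the floor of 6.01, and its +Lin mean of 5.66 was lower than that floor too. The array apart raised that floor, with a first quartile of 7.36 against 5.53, 5.55 and 5.59 on the other -Lin arrays. The +Lin mean of SAUR1 also lay close to its own mean floor of 5.59. The 2 mesophyll markers were lower with lincomycin at 0, 4 and 24 h. All 4 epidermis markers had a higher mean with lincomycin in the 0 h arrays numbered 5 to 8, at 12.64 against 11.66 for CER6, 11.31 against 10.34 for PDF1, 11.69 against 11.19 for FDH and 9.82 against 9.30 for ATML1. The part of these markers in the lincomycin differences was not tested.

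The difference between the light responses of both media was fitted for all probe sets, and its counts for the 10 genes rest on the levels that picked them, so that nothing is read from them. At 0.5 h 1 of the 10 was called lower with lincomycin (0.0396% of all) and 0 higher (0.0308%). At 1 h 0 of 10 were called in the limma fit, where 0.387% of all were called in either direction, or 1 higher and 2 lower without the array apart (0.73% and 0.615% of all). At 4 h 1 was called higher (4.9%) and 0 lower (6.02%), or 1 and 1 without the array apart (8.89% and 10.2% of all). At 24 h SAUR1 alone was called higher (12.9% of all), with its 24 h -Lin mean below the floor and its 24 h +Lin mean close to it.

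**Figure D3:**
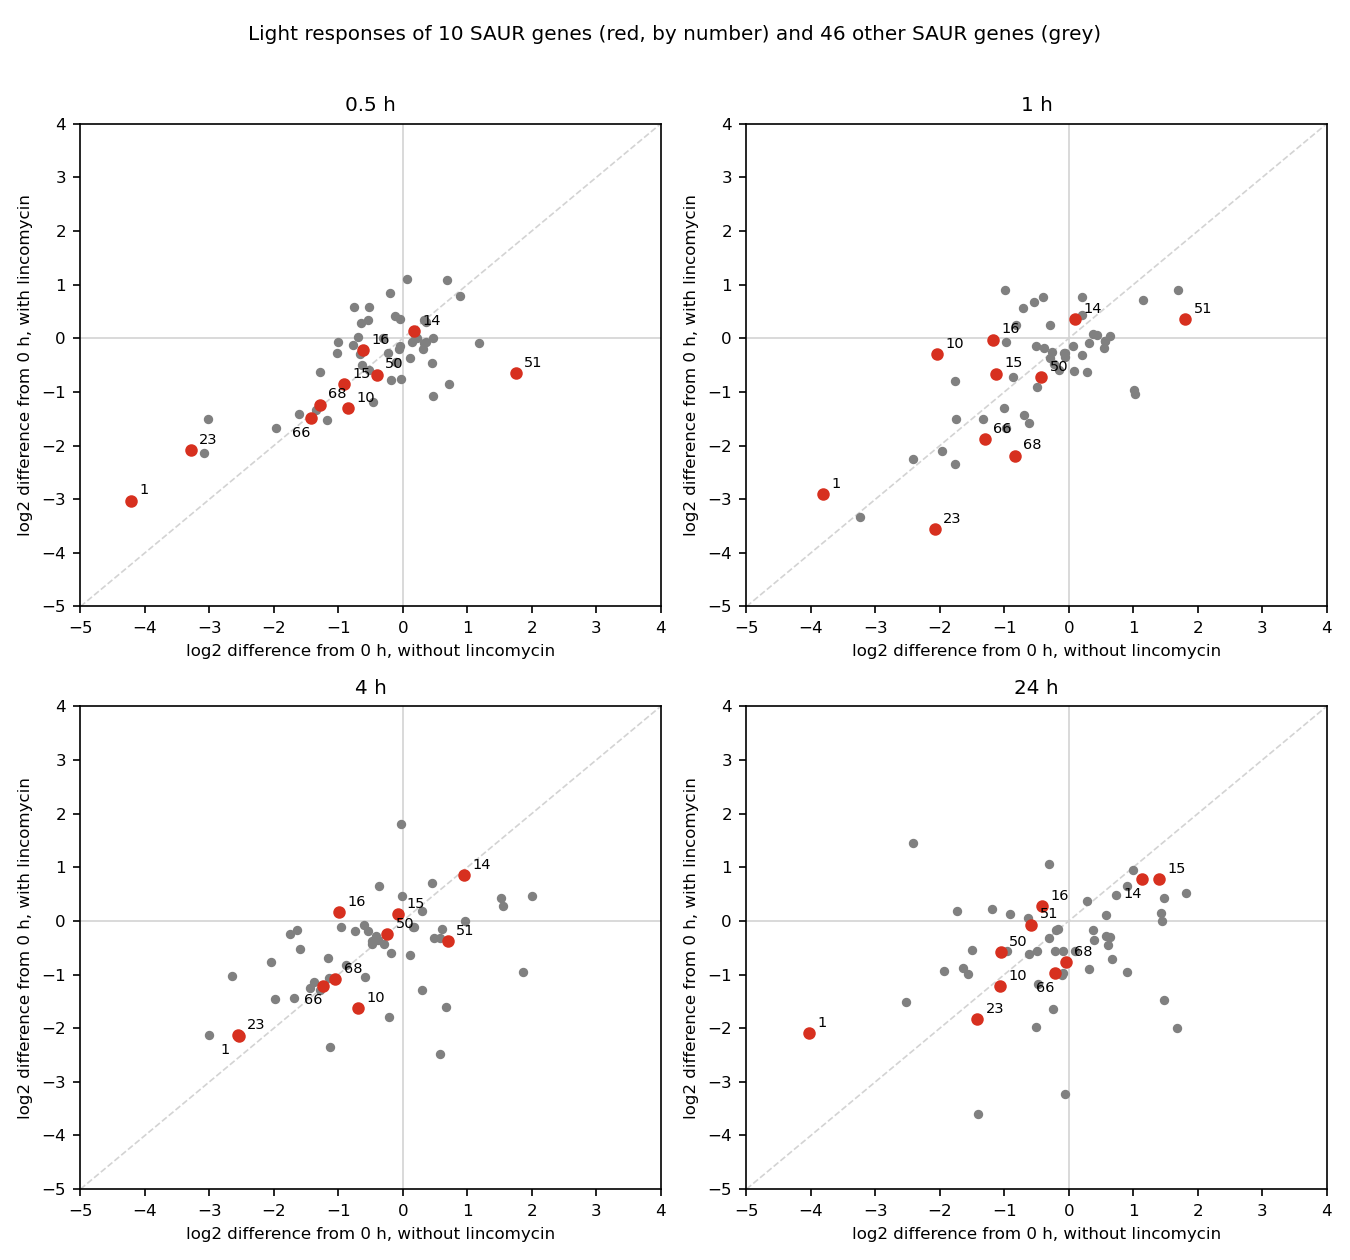
Light response without lincomycin (horizontal axis) against light response with lincomycin (vertical axis) at 4 times, both as log2 differences from the 0 h arrays of the same medium and set. Each point is 1 gene, the 10 SAUR genes in red with their numbers and 46 other SAUR genes in grey, and the dashed line marks equal responses. SAUR1 and SAUR23 lie at the lower left at all 4 times, SAUR1 drawn as fitted from levels below the floor at most of them, and SAUR51 lies far right of the line at 0.5 h, at 1.75 without and -0.65 with lincomycin.

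Over the medians of the 12 groups, the levels of SAUR66 and SAUR23 ran together most closely (Pearson r = 0.98), although these genes lie on different chromosomes. The neighbours SAUR66 and SAUR68 had r = 0.86, SAUR66 and SAUR1 0.83, and SAUR23 and SAUR1 0.78. In contrast, the neighbours SAUR14 and SAUR15 had r = 0.25, SAUR15 and SAUR16 0.30, and SAUR14 and SAUR16 -0.11. SAUR14 ran opposite to SAUR1 (r = -0.67) and SAUR66 (r = -0.56), and SAUR51 to SAUR68 (r = -0.51). Of the 45 pairs 31 had a positive and 14 a negative r. These counts include the pairs of SAUR10, at or below the floor in 11 of the 12 groups. SAUR1 was at or below it in 5 groups, so that its r values rest in part on levels of no readable size. These values describe 12 groups that share array sets and carry no test.

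The authors' deposited table gives log ratios for 8 light responses and 3 lincomycin effects, which follow the same set-matched references. For the 10 genes 102 of 110 ratios in the authors' deposited table had the sign of the difference computed here, as is natural for the same arrays, and the other 8 were at most 0.30 in size. For SAUR1 the authors' deposited table has -1.72 at 0.5 h -Lin and -3.11 at 4 h -Lin. For SAUR10 it has values between -0.15 and 0.10 in all 11 comparisons. For SAUR66 it has -2.33 and -2.10 at 0.5 h without and with lincomycin, larger in size than the differences from the signals.

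Among the 46 other SAUR genes the limma fit called 1 higher and 4 lower at 0.5 h -Lin, 3 and 7 at 1 h, 5 and 13 at 4 h, and 7 and 8 at 24 h. Of all probe sets 0.387% were called higher and 0.466% lower at 0.5 h, 3% and 2.68% at 1 h, 17.3% and 16.2% at 4 h, and 20.7% and 21.5% at 24 h. Without the array apart the counts were 1 and 4, 4 and 10, 6 and 16, and 3 and 14. The shares of all were then 0.866% and 0.888%, 4.99% and 4.28%, 20.9% and 20.7%, and 19.2% and 24.5%. With lincomycin the counts were 0 higher and 1 lower, 1 and 6, 1 and 6, and 1 and 8, or 1 and 1, 2 and 7, 3 and 8, and 2 and 10 without the array apart. The shares of all probe sets were 0.167% higher and 0.18% lower, 0.958% and 0.545%, 7.16% and 6.36%, and 9.89% and 12.4%. Without the array apart they were 0.497% and 0.409%, 1.7% and 1.27%, 10.3% and 11.5%, and 13.1% and 17.4%. The median difference of the 46 genes was -0.15, -0.28, -0.41 and -0.10 at 0.5, 1, 4 and 24 h -Lin. With lincomycin it was -0.13, -0.28, -0.40 and -0.49. The 10 genes, picked on these levels, had medians of -0.88, -1.15, -0.84 and -0.50 -Lin, and of -1.04, -0.69, -0.73 and -0.68 +Lin. At 24 h -Lin without the array apart the medians were -0.59 for the 46 and -0.66 for the 10 genes. Among the 46, a fall was seen in 5 genes that were called in at least 4 of the 8 comparisons. SAUR27 and SAUR28 fell in 7 and 4 comparisons, for example SAUR27 at 0.5 h +Lin (-1.41 ± 0.26, adjusted p = 0.0031) and SAUR28 by at least 0.89 at 1 h -Lin (adjusted p = 0.0020). Fitting only the arrays compared called 1 probe set in all at 0.5 h +Lin, 1 of the 10 genes, so that this SAUR27 call was lost. SAUR65, of the SAUR63 group like SAUR66 and SAUR68, fell by at least 1.48 at 0.5 h -Lin (adjusted p = 2.8e-05) and by at least 1.60 at 1 h +Lin (adjusted p = 0.0024). SAUR25 fell to below the floor in all 6 comparisons in which it was called, for example by at least 1.52 at 0.5 h -Lin (adjusted p = 0.0049).

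SAUR57, SAUR79 and SAUR6 differed between the media. SAUR57 fell by at least 1.70 at 24 h +Lin (adjusted p = 1.0e-08), and its 24 h difference -Lin was -0.05 ± 0.37. The difference between its responses was below 0 (adjusted p = 1.1e-05), and no size is given because the +Lin group lay below the floor. SAUR79 rose by 1.69 ± 0.23 at 1 h -Lin (adjusted p = 1.3e-06), and the difference between its responses at 4 h was -1.27 ± 0.32 (adjusted p = 0.0065). SAUR6 was bright on all arrays. Its means in the 0 h arrays numbered 1 to 4, where medium and set cannot be told apart, were 10.92 -Lin and 9.26 +Lin. SAUR6 fell by 0.98 ± 0.18 at 1 h -Lin (adjusted p = 0.00022) and rose by 0.90 ± 0.19 at 1 h +Lin (adjusted p = 0.0055). The difference between the SAUR6 responses was 1.33 ± 0.25 at 0.5 h (adjusted p = 0.013) and 1.88 ± 0.27 at 1 h (adjusted p = 0.00012). The means after 1 h were 9.94 -Lin and 10.16 +Lin, where medium and set again cannot be told apart. At 24 h SAUR6 had risen in both, by 0.99 ± 0.18 -Lin (adjusted p = 1.8e-05), or 0.67 without the array apart, and by 0.95 ± 0.18 +Lin (adjusted p = 8.2e-05).

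Light and shade regulators, a list chosen with results known, are given by their counts, to be set beside the shares of all probe sets in the same comparisons given for the other SAUR genes. Of its 13 measured genes 2 rose and 2 fell at 0.5 h -Lin, 2 and 6 at 1 h, 2 and 10 at 4 h and 2 and 9 at 24 h. With lincomycin it was 2 and 3, 2 and 3, 2 and 5, and 3 and 7. Without the array apart 4 fell at 0.5 h -Lin, and 3 rose at 4 h +Lin. HY5, a bZIP factor that promotes development in light, rose by 2.20 ± 0.18 at 1 h -Lin and 3.13 ± 0.19 at 1 h +Lin (adjusted p = 8.6e-12 and 7.6e-15). HB-2, a homeodomain factor induced by shade, fell at 1 h, with differences of -2.54 ± 0.43 and -2.38 ± 0.47 (adjusted p = 7.9e-05 and 0.0017), and PAR1, which restrains shade elongation, fell too, with differences of -3.02 ± 0.25 and -1.54 ± 0.27 (adjusted p = 2.4e-11 and 0.00037). Of the PIF genes themselves, PIF4 fell by 0.80 ± 0.13 and PIF5 fell by 0.61 ± 0.21 at 4 h -Lin (adjusted p = 3.5e-06 and 0.024).

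Most called auxin response genes were lower after the shift. Of the 19 Aux/IAA genes, which encode repressors that auxin itself induces, 0 rose and 1 fell at 0.5 h -Lin, and 2 rose and 11 fell at 4 h. With lincomycin 0 were called at 0.5 h, and 2 rose and 9 fell at 4 h. Without the array apart 2 fell at 0.5 h in each medium. IAA29, a known PIF target, fell by 2.30 ± 0.39 at 0.5 h -Lin (adjusted p = 0.00033) and fell by 2.90 ± 0.39 at 4 h +Lin (adjusted p = 5.2e-07). IAA19 fell at 4 h, with differences of -1.33 ± 0.26 and -1.59 ± 0.26 (adjusted p = 8.9e-05 and 2.0e-05). Of the 5 measured GH3 genes, whose enzymes conjugate auxin to amino acids, 3 fell at 1 h -Lin and 1 at 1 h +Lin, and 0 rose. GH3.5 fell in both, with differences of -1.04 ± 0.10 and -0.95 ± 0.11 (adjusted p = 9.1e-10 and 1.4e-07).

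Genes of auxin supply and perception were counted in the same way. At 0.5 h 0.853% of all probe sets were called -Lin and 0.347% +Lin. Counts of 0 at 0.5 h in these and the other short lists are therefore not read as a result. Of 11 auxin synthesis genes 0 were called at 0.5 h in either medium, and at 4 h 1 rose and 3 fell -Lin and 3 fell +Lin. CYP79B3 fell by 1.04 ± 0.19 at 4 h -Lin (adjusted p = 3.4e-05). Of 12 receptor and ARF genes 0 were called at 0.5 h, and at 4 h -Lin 1 rose and 5 fell, among them the receptor gene TIR1 at -1.43 ± 0.15 (adjusted p = 5.5e-10). Of the 8 transport genes 0 were called at 4 h -Lin, and 3 fell at 4 h +Lin, among them PIN7 at -0.95 ± 0.26 (adjusted p = 0.010). Of 9 brassinosteroid and gibberellin genes 4 fell at 4 h in each medium, among them the brassinosteroid synthesis gene CPD at -2.03 ± 0.18 -Lin (adjusted p = 8.3e-12), and 0 rose -Lin and 1 +Lin.

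Downstream of the SAUR proteins, 4 of 9 PP2C.D phosphatase genes fell and 1 rose at 4 h -Lin, and 3 fell and 0 rose at 4 h +Lin. PP2C.D1 fell, with differences of -1.36 ± 0.25 and -2.82 ± 0.25 (adjusted p = 2.8e-05 and 3.5e-11). Of the 7 plasma membrane H+-ATPase genes 0 were called at 0.5 h in either medium, 4 fell at 4 h -Lin and 0 at 4 h +Lin. AHA2 fell by 0.80 ± 0.20 at 4 h -Lin (adjusted p = 0.0017). The 18 expansin and XTH genes, which act on the wall, went in both directions at 4 h -Lin, where 7 rose and 5 fell, while 1 rose and 7 fell at 4 h +Lin, and 1 rose and 13 fell at 24 h +Lin. XTH22, also known as a touch-induced gene, rose by 2.46 ± 0.20 and 2.50 ± 0.20 at 4 h (adjusted p = 7.9e-13 and 2.1e-12), and EXPA10 rose by 2.53 ± 0.30 at 4 h -Lin (adjusted p = 6.7e-09). At 4 h -Lin 2 of the 4 epidermis markers rose too, among them PDF1 by 1.33 ± 0.14 (adjusted p = 1.0e-09), and 0 of 4 at 4 h +Lin. Their part in these counts was not tested. Among all probe sets 33.5% were called at 4 h -Lin and 13.5% at 4 h +Lin, so that these list counts describe the lists and do not set them apart from other genes. Without the array apart, several 4 h counts of these lists were larger by more than 1.5 times: 3 PP2C.D genes rose -Lin, 3 transport genes fell and 1 rose -Lin, and with lincomycin 2 H+-ATPase genes fell, 3 expansin and XTH genes and 1 epidermis marker rose, and 5 auxin synthesis genes fell.

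**Figure D4:**
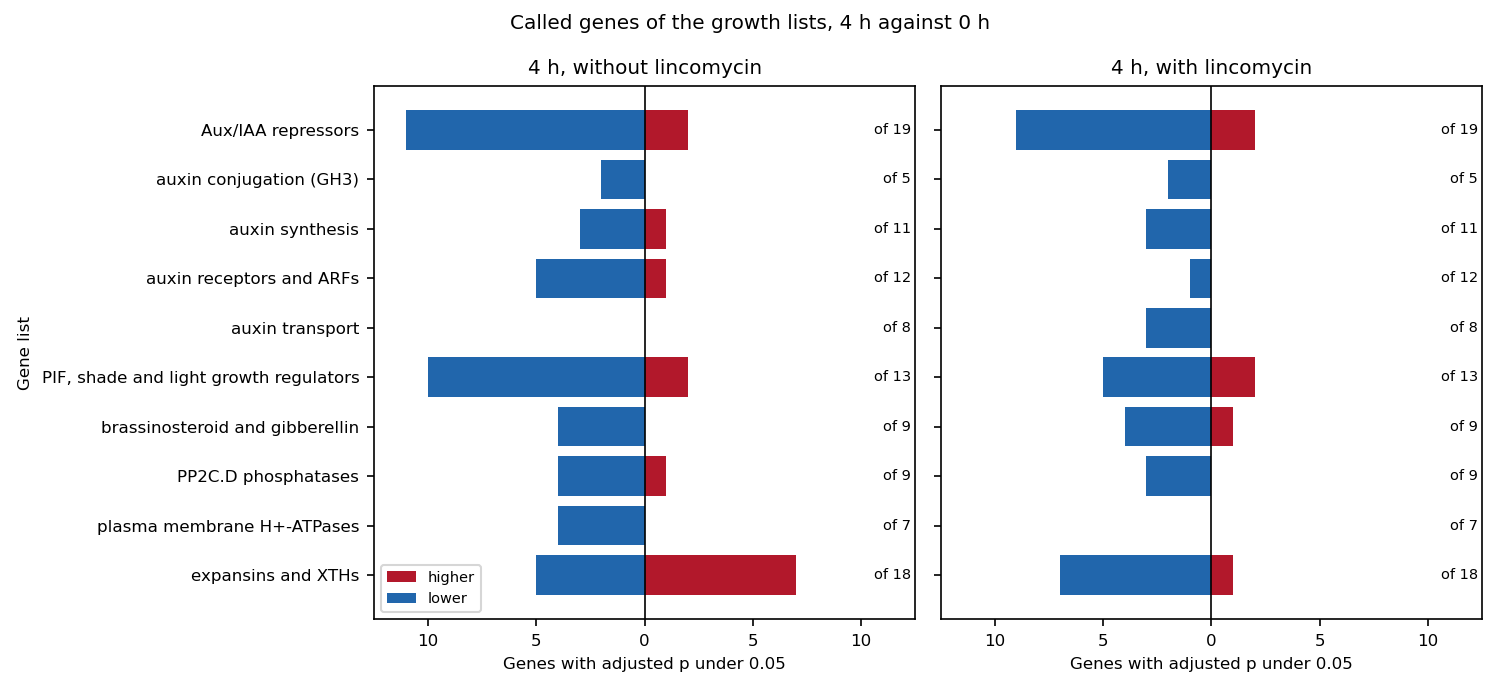
Number of called genes per growth list at 4 h against 0 h, without lincomycin (left) and with it (right), on the horizontal axis, with lower genes left of 0 and higher genes right of it. The number of measured genes stands at the right edge. Aux/IAA repressors have 11 and 9 lower genes, and the expansin and XTH list has 7 higher genes without and 1 with lincomycin.

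The genes whose group medians were most like the mean profile of the 10 SAUR genes were sought among 12724 probe sets of other genes. By Pearson r over 12 groups they were HB-2 (0.91), IAA29 (0.87), PIT1 (0.87), PKS4 (0.84), which encodes a phytochrome kinase substrate, and ATAUX2-11 (0.83), which is IAA4. Without the array apart, 4 of the 5 stayed and AT4G10910 took the place of PKS4. The mean profile stood at 0.75 above its own average in the -Lin 0 h arrays numbered 1 to 4 and at -0.40 after 0.5 h, and at 0.83 and -0.37 in the +Lin arrays. Ranges differed: IAA29 spanned 3.56 and HB-2 2.79 on the log2 scale, whereas PIT1 spanned 0.70. The mean profile includes the levels of SAUR1 and SAUR10 below the floor as they were read, and a ranking without them was not made.

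**Figure D5:**
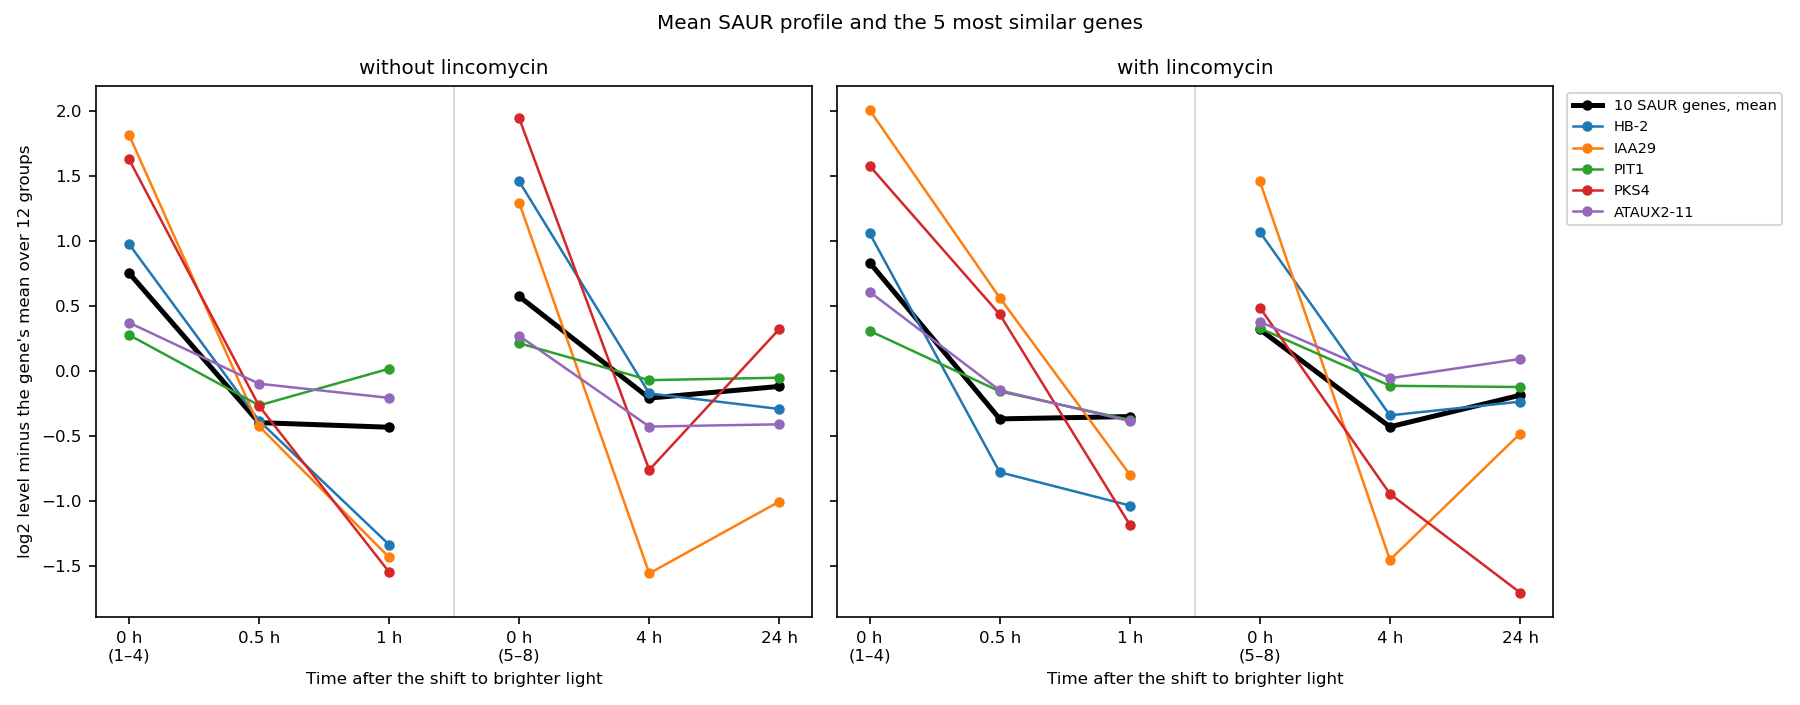
Mean profile of the 10 SAUR genes (black) and of the 5 genes most like it, as the log2 group median minus the gene's mean over 12 groups on the vertical axis, against time after the shift. Lines join groups of 1 array set. All 6 profiles are highest at 0 h in both media, except that PKS4 at 0 h with lincomycin, numbers 5 to 8, lies lower than in the other 0 h groups.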

How the data were processed

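RNA of 47 seedling samples was hybridized to Affymetrix ATH1 arrays. The deposited value table gives each probe set's signal intensity on a linear scale, and the authors' deposited comparison table holds log2 ratios between groups with a p-value beside each; neither its test nor the log base is stated, and base 2 was taken from its slope of 1.18 against the differences computed here at 4 h without lincomycin. Per the submitters' processing notes MAS5 and GCRMA were used, with no statement of which made which table. Loci come from the authors' table, and names and gene order from the TAIR10.1 annotation.

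Values were transformed to log2(signal + 1) with no further normalization. Controls (64 of 22810 probe sets) were left out. A limma 3.58.1 fit (R 4.3.3) of 12 groups and 15 comparisons over 22746 probe sets gave differences, moderated tests and Benjamini-Hochberg adjusted p-values. The number of arrays limits the precision. Python 3.11.15, pandas 2.3.3 and matplotlib 3.10.9 were used. The fit was tested on simulated data.

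The 10 genes and all lists were chosen with earlier results of these data known. Named genes are the 10, other SAUR genes called in at least 4 of 8 light responses, up to 3 called genes of the largest difference per list and comparison, 6 fixed genes and the 5 most similar genes. The array sets and the use of matched 0 h arrays were fixed from earlier results too. Sequences, promoters and proteins were not analysed here.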

Additional observations from a re-analysis of the deposited data

Results flagged for a closer look

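Of 110 groups of 4 arrays of 1 of the 10 genes, 11 held an array far from the others, and chance alone marks about 1 in 20 such groups. In 4 of the 11 it was array 4 at 24 h without lincomycin, the array that stood apart over all probe sets: SAUR66 read 9.73 there (others 7.78 to 8.0), SAUR15 9.32 (7.52 to 7.68), SAUR50 8.03 (9.51 to 9.75) and SAUR16 7.92 (8.82 to 8.94). The other 7 lay on different arrays. At 4 h without lincomycin SAUR66 read 7.04 on array 2 (others 7.42 to 7.47) and SAUR15 6.09 on array 4 (6.72 to 6.75). At 0 h without lincomycin SAUR51 read 5.58 on array 3 (6.66 to 6.79), SAUR10 4.4 on array 8 (5.64 to 5.81) and SAUR14 10.88 on array 1 (11.09 to 11.12). With lincomycin SAUR10 read 4.65 on array 3 at 0 h (5.85 to 6.01), and SAUR1 3.75 on array 4 at 24 h (6.20 to 6.40).

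SAUR51 and SAUR16 had light responses of opposite sign in the 2 media. The response with lincomycin minus that without was -2.40 at 0.5 h and -1.08 at 4 h for SAUR51, and 1.16 at 4 h and 0.69 at 24 h for SAUR16. The 24 h value of SAUR16 rests in part on the array apart and is smaller without it. Its 24 h mean without lincomycin was 8.65 with that array and 8.89 without it, against 9.07 at 0 h. Because both genes were picked on these levels, these differences are a description.

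Among the other SAUR genes, the limma interaction term with Benjamini-Hochberg adjustment separated the media for SAUR6 at 0.5 h (1.33, adjusted p = 0.0134) and 1 h (1.88, adjusted p = 0.000122), for SAUR79 at 4 h (-1.27, adjusted p = 0.00651) and for SAUR57 at 24 h (-3.18, adjusted p = 1.07e-05).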

How the results depend on the processing

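The depth of an array study is set by signal over background: SAUR10 and many SAUR1 values lay at the floor, and their differences are bounds at best. With the mean of both 0 h sets as reference the median difference of the 10 genes was -0.57 at 0.5 h and -0.87 at 1 h without lincomycin and -0.42 at 1 h with it; IAA14, named only here, reversed at 4 h without lincomycin, from 0.56 to -0.29. Quantile normalization gave -0.84 at 24 h without lincomycin, -0.20 for lincomycin at 24 h and 0.083 for the difference of responses at 24 h. A pseudocount of 16 gave -0.80 at 0.5 h with lincomycin. Array weights gave -0.20 for lincomycin at 24 h and -0.0066 for the difference of responses at 24 h. The cause was not tested.

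Leaving out 1 array at a time moved the median between -1.04 and -0.79 (0.5 h), -1.27 and -1.04 (1 h), -0.99 and -0.74 (4 h) and -0.66 and -0.22 (24 h, the latter without array 1 at 24 h) without lincomycin, and between -1.09 and -0.90, -0.83 and -0.54, -0.79 and -0.70, and -0.71 and -0.53 with it. For the lincomycin effect it ran from -0.30 to -0.09 (0 h), -0.24 to -0.05 (4 h) and -0.58 to -0.15 (24 h), and for the difference of responses from -0.09 to 0.11, -0.15 to 0.11, -0.05 to 0.08 and -0.44 to 0.022. SAUR57 at 24 h without lincomycin, not called, lay between -0.16 and 0.029. Under quantile normalization that SAUR57 value was -0.63.

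Counts of called probe sets depended on the setting. With the mean of both 0 h sets 1775 instead of 194 were called at 0.5 h, 3629 instead of 1292 at 1 h without lincomycin, and 1290, 1062 and 5693 instead of 79, 342 and 3075 at 0.5, 1 and 4 h with it; the differences of responses gave 196 and 477 instead of 16 and 88 at 0.5 and 1 h. Array weights gave 548 and 2891 at 0.5 and 1 h without lincomycin, 564 and 5749 at 1 and 4 h with it, 6214 instead of 3155 for lincomycin at 4 h, and 42, 325 and 4970 for the differences of responses at 0.5, 1 and 4 h (2485 in the limma fit of the report). Fitting only the arrays compared gave 4350 instead of 9602 at 24 h without lincomycin, 1 and 85 at 0.5 and 1 h with it, 1574 instead of 7532 for lincomycin at 24 h, and 2, 4079 and 3296 for the differences at 0.5, 4 and 24 h (5903 at 24 h in the report). Quantile normalization gave 10 and 55 for the differences at 0.5 and 1 h.

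Of the 10 genes, fitting only the arrays compared called 3 instead of 5 at 0.5 h and 3 instead of 5 at 24 h without lincomycin, 1 and 2 instead of 4 and 4 at 0.5 and 1 h with it, 2 instead of 0 and 0 instead of 7 for lincomycin at 4 and 24 h, and 0, 2 and 0 instead of 1 each for the differences at 0.5, 4 and 24 h. Array weights called 8 at 24 h without lincomycin, 1 and 3 for lincomycin at 4 and 24 h, and 2, 2 and 0 for the differences at 1, 4 and 24 h. The mean of both 0 h sets called 2 in each of the 4 differences, the filter on dim probe sets 1, 2 and 2 at 1, 4 and 24 h, and a pseudocount of 16 called 1 at 1 h.

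Deviations of same-numbered arrays were mostly weakly correlated, with r from -0.12 to 0.32 and 5 of 27 pairs above 0.1. The numbers were therefore not taken as pairs, but such r values cannot exclude a shared origin of same-numbered samples. With the number as a replicate block the medians were -0.88 and -1.15 at 0.5 and 1 h without lincomycin, -1.04 and -0.75 with it, and -0.20, -0.19 and -0.41 for lincomycin at 0, 4 and 24 h, and 1, 508, 0, 0, 3281, 2057 and 64 probe sets were called, 1, 2, 0, 0, 2, 1 and 0 of them for the 10 genes. Of the named values of other genes, 48 lost their call with the block and 21 were unchanged. The calls of SAUR27 at 0.5 h +Lin and of SAUR65, SAUR25 and IAA29 at 0.5 h -Lin were lost. Fitting only the arrays compared took the call from 36 such values and left 123 unchanged. Quantile normalization took it from 26, with 132 unchanged and 1 gained. No paired analysis was possible because 0 h numbers 5 to 8 match none of 1 to 4 for the light responses at 4 and 24 h.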
